A study of Mus musculus with 6 samples.

Results

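Trp53, the gene for the tumour suppressor p53, was followed here with its inhibitors Mdm2 and Mdm4 and with 7 of its well-known target genes, Trp53inp1, Ccng1, Sesn1, Sesn2, Phlda3, Zmat3 and Eda2r, in mouse acute myeloid leukaemia cells that lack Dnmt3b and in control leukaemia cells. The 10 genes were chosen by symbol. Of these, 9 had a row that the array annotation gives to that symbol alone, among 30142 genes in all, and each of the 9 had exactly 1 such row. The level of Trp53 itself was not analysed here, so every statement below concerns its inhibitors and targets.

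RNA was measured on 6 Affymetrix arrays. The 3 Control AML arrays hold leukaemia cells of littermate control origin, and the 3 Dnmt3b-KO AML arrays hold leukaemia cells with a knockout of Dnmt3b, the gene of an enzyme that sets methyl marks at unmethylated CpG sites. Both groups carry MLL-AF9, the fusion oncogene that induced the leukaemia, and all cells were sorted from the bone marrow of recipient mice with end-stage disease. The labels name no sort markers, no ages and no deleted exons, and leave unsaid if different arrays hold cells of different mice. The p-values therefore reflect only how these arrays vary, which may be technical. Values are log2 levels as deposited, and differences between them are given in log2 units.

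p53 is a transcription factor that is kept scarce in unstressed cells, because Mdm2 marks it for destruction and Mdm4 binds and silences it. After DNA damage or other stress it escapes both and switches on genes that stop the cell cycle, repair DNA, alter metabolism or start apoptosis. Mdm2 is itself one of these genes, so p53 raises its own inhibitor.

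The promoters of 8 of the 10 genes were among the RefSeq sequences at hand (10 windows on GRCm38.p6, each 300 bases, from 250 before to 50 after a transcript start). They are shown because p53 binds DNA at a known motif, the p53 half-site of 10 bases, of which a full site holds a pair with a gap of at most 13 bases. The half-site reads the same on both strands. It was found in 1 window each of Trp53, Mdm2, Ccng1 and Sesn1, that is in 4 of the 8 genes and 4 of their 10 windows. Over all genes, 8.36% of 32851 windows hold it. The Ccng1 window holds a full site with 1 letter off the motif, a match that 0.627% of all windows reach. Cdkn1a, a p53 target outside the 10 genes that is described below, has in 1 of its 2 windows a full site with 0 letters off, found in 0.0731% of windows. The window of Plk2, another target described below, holds 0 half-sites, and its best full site matches 15 of 20 letters. No half-site was found in the windows of Mdm4, Sesn2, Phlda3 and Eda2r, and Trp53inp1 and Zmat3 had no window. The windows of the 3 measured genes with a half-site and the Cdkn1a window with the full site read as follows, 5′ to 3′ on the strand of the gene, with the matched motif in capitals.
Mdm2 (GRCm38.p6, chr10:117710709-117711008, minus strand): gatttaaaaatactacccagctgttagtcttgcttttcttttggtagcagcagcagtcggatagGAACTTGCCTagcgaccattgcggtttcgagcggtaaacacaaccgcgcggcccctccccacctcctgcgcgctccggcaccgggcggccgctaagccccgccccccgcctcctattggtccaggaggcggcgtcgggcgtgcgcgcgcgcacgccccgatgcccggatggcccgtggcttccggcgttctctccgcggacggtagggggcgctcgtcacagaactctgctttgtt
Sesn1 (GRCm38.p6, chr10:41887189-41887488, plus strand): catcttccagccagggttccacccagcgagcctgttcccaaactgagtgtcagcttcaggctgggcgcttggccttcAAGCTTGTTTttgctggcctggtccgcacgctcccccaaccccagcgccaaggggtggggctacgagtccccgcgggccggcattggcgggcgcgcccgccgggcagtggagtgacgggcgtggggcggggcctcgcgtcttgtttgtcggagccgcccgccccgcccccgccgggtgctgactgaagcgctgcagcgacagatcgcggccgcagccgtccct
Ccng1 (GRCm38.p6, chr11:40755237-40755536, minus strand): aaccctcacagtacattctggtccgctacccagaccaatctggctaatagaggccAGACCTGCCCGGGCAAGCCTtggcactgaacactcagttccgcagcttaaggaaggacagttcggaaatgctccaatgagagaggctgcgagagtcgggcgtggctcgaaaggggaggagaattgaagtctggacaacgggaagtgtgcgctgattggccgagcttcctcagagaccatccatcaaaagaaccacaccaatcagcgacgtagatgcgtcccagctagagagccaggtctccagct
Cdkn1a (GRCm38.p6, chr17:29090729-29091028, plus strand): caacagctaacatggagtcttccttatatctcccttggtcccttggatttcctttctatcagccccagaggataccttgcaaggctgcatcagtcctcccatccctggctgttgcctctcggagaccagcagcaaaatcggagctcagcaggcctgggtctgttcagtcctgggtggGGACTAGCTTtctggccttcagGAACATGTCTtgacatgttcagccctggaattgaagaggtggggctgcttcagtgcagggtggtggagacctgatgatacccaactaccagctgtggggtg
The windows hold different numbers of CpG, the dinucleotide that DNMT3B methylates. There are 35 in the Mdm2 window, 31 in this Sesn1 window, 14 in that of Ccng1 and 2 in the Cdkn1a window shown, where the median of all windows is 7. A second Cdkn1a window, at another start, holds 23 CpG and 0 half-sites. A match in such a window is a description of the letters, and neither binding nor methylation was measured.

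Dnmt3b-KO replicate 3 stood apart from the other 5 arrays before any gene was considered. It correlated with them at 0.981 to 0.982 across genes, where those 5 correlated at 0.998 to 0.999 among themselves. Eif2s3y, a Y chromosome gene singled out after its values were seen, measured 8.26 on it and 4.41 to 4.54 on the others. Of 12 macrophage markers 9 lay above every other array on it, against 33.9% of all genes. The mean level of the list was 9.53 there and 6.48 to 6.63 on the others. Gpnmb measured 16.16, Mrc1 12.05, Csf1r 12.97 and Cd68 14.60 there, and C1qa, also above the other arrays, measured 4.84. Cd5l (4.53) and Marco (5.06) lay within the range of the others and Vcam1 (9.04) below it. Of 8 measured myeloid leukaemia markers, 6 lay below every other array there, against 31.3% of all genes, among them Kit (9.71) and Meis1 (10.21). The other 2 lay above, Itgam (15.41) and Fcgr3 (15.13). Dnmt3b measured 6.76, 6.83 and 6.78 in control and 6.47, 6.63 and 5.96 in Dnmt3b-KO. It was lower on all 3, where 14.9% of all genes had groups that did not overlap. The difference was -0.44 ± 0.17 over 6 arrays (SE, limma, adjusted p = 0.78) and -0.24 ± 0.07 over 5 (adjusted p = 0.16). Neither passed the threshold. All 8 leukaemia markers, such as Mpo at 16.54 or more, lay above the median gene (4.75 to 4.85) on all arrays, whereas all 7 measured T cell markers lay below it. Other lists were mixed. Below it on all arrays lay 5 of 6 B cell, 5 of 6 stromal, 4 of 5 endothelial, 2 of 4 megakaryocyte and 2 of 7 erythroid markers. Pf4, a megakaryocyte marker, measured 3.71 to 3.97 on 5 arrays and 10.22 on replicate 3. Each of the 9 genes is therefore given, in the text or figures, over 6 arrays, over the 5 arrays without Dnmt3b-KO replicate 3, and for that replicate apart. For genes of other lists not all of these are printed.

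Among the 9 genes, Trp53inp1 was the gene that changed between Dnmt3b-KO replicates 1 and 2 and control, where it rose by 0.47 ± 0.06 (SE). The remaining 8 did not pass. On Dnmt3b-KO replicate 3 the picture differed. There 7 of the 9, Mdm2, Mdm4, Ccng1, Sesn1, Sesn2, Zmat3 and Eda2r, measured higher than on any other array, against 33.9% of all genes. Trp53inp1 lay between the control and the other Dnmt3b-KO values. Of 28 further p53 targets described below, 8 lay above every other array on replicate 3 and 16 below, where 31.3% of all genes lay below. Over all 6 arrays 0 of the 9 genes were called by limma (0% of all 30142 genes were), and 2 of 9, Mdm4 and Trp53inp1, had an unadjusted p under 0.05, as did 6.37% of all genes. The same 2 were the genes whose groups did not overlap over 6 arrays, a state that 14.9% of all genes shared. With 3 arrays against 3, an exact permutation test of 1 gene could not have gone below 0.1.

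**Figure D1:**
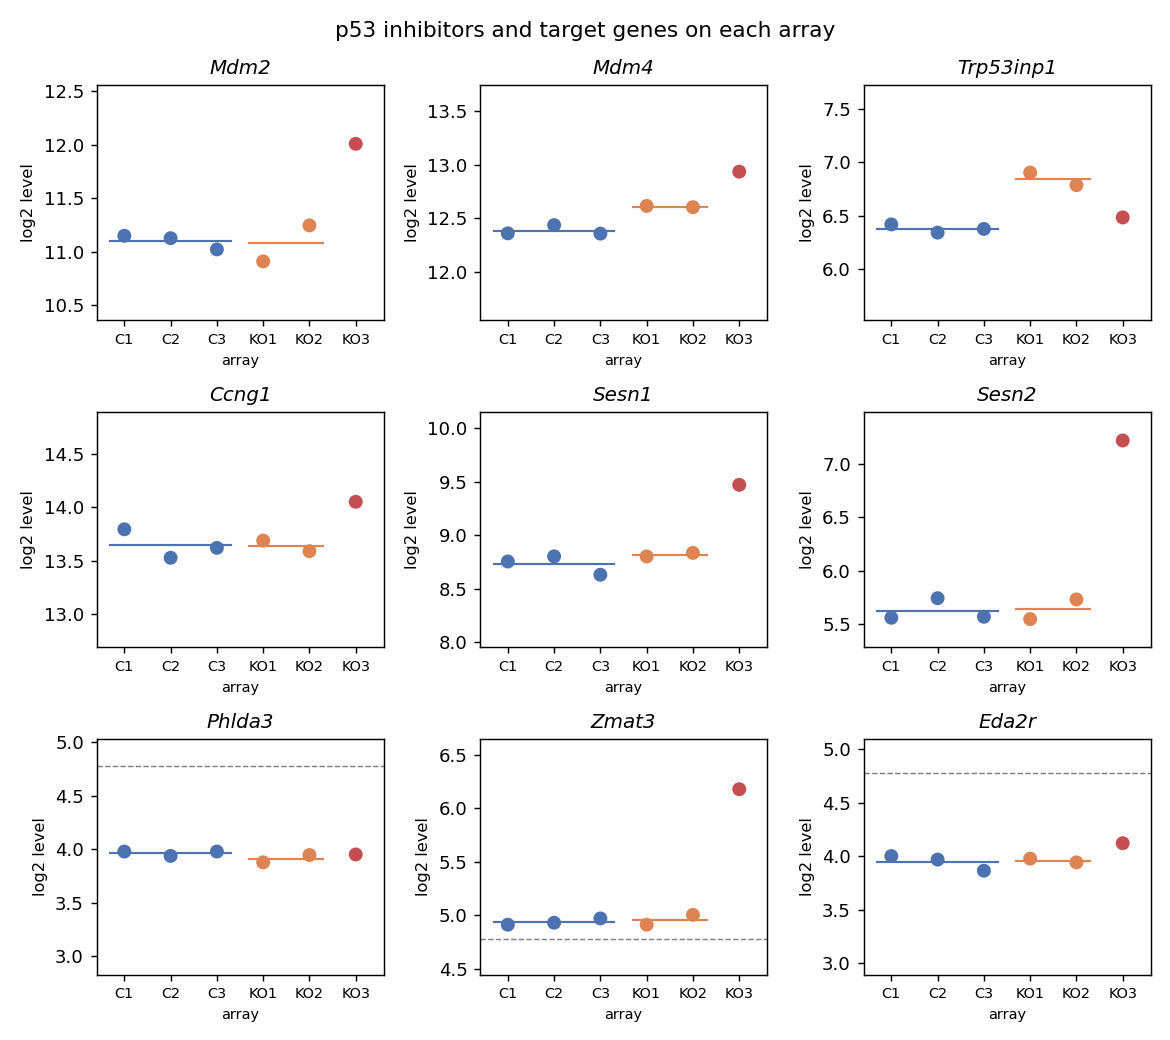
Log2 level (y axis, a span of 2.2 in every panel) of each measured gene on each array (x axis; C1 to C3 control, KO1 to KO3 Dnmt3b-KO); points are arrays, solid lines the mean of the controls and of KO1 and KO2, and the dashed line the median gene where it falls in the panel. KO3 is the highest point for 7 of the 9 genes, against 33.9% of all genes, and Trp53inp1 is highest on KO1 and KO2.

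The inhibitors of p53 came first. Mdm2, the ubiquitin ligase that sends p53 to the proteasome, measured 11.15, 11.12 and 11.02 on the control arrays, 10.91 and 11.24 on Dnmt3b-KO replicates 1 and 2, and 12.01 on replicate 3. Replicates 1 and 2 enclosed all 3 controls, and replicate 3 lay 0.76 above the highest of the other arrays. Without replicate 3 the difference from control was -0.02 ± 0.11 (SE; 95% interval -0.28 to 0.24; limma, adjusted p = 0.96), and with it 0.29 ± 0.28 (adjusted p = 0.84). Mdm4, which binds the activation domain of p53 and pairs with Mdm2, measured 12.36, 12.44 and 12.36 in control, 12.61 and 12.60 on replicates 1 and 2, and 12.94 on replicate 3. All 3 Dnmt3b-KO values lay above all 3 controls. The difference was 0.23 ± 0.06 without replicate 3 (limma, adjusted p = 0.13) and 0.33 ± 0.10 over 6 arrays (adjusted p = 0.71), and neither passed.

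Trp53inp1, a stress-induced nuclear protein that promotes apoptosis and autophagy, measured 6.42, 6.34 and 6.38 in control, 6.90 and 6.79 on Dnmt3b-KO replicates 1 and 2, and 6.48 on replicate 3. Replicates 1 and 2 were clear of the controls, and replicate 3 lay just above the highest control. The rise of 0.47 ± 0.06 (SE; 95% interval 0.31 to 0.62) over 5 arrays passed the threshold (limma, adjusted p = 0.031), 1 of 9 measured genes against 1.69% of all genes called in either direction, 0.939% called higher and 0.75% called lower. At an adjusted p under 0.1 it was again 1 of 9, against 3.81% of all genes. Over 6 arrays the difference was 0.35 ± 0.12 (adjusted p = 0.72). The call rested on each of the 5 arrays: leaving out any 1 of them ended it, with adjusted p from 0.079 (without control replicate 2) to 0.20 (without Dnmt3b-KO replicate 1), while the difference kept between 0.41 and 0.52. The replicate number as a block, which over 5 arrays sets control replicate 3 aside, also ended it (difference 0.46; limma, adjusted p = 0.10).

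Phlda3 and Eda2r, the other targets tied to survival, were measured at low levels. Phlda3, whose protein holds back the kinase Akt, measured 3.98, 3.94 and 3.98 in control and 3.88, 3.95 and 3.95 in Dnmt3b-KO. Eda2r, a receptor of the tumour necrosis factor receptor family on the X chromosome, measured 4.003, 3.97 and 3.87 in control, 3.98 and 3.94 on Dnmt3b-KO replicates 1 and 2, and 4.12 on replicate 3. Both lay below the median gene on every array, so the data do not tell whether these transcripts were present. The 95% interval of their difference over 5 arrays was -0.19 to 0.08 for Phlda3 and -0.14 to 0.17 for Eda2r.

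Ccng1, Sesn1 and Sesn2 act in cell cycle control and the stress response. Ccng1, which encodes cyclin G1 and feeds back on Mdm2, measured 13.79, 13.53 and 13.62 in control, 13.69 and 13.59 on Dnmt3b-KO replicates 1 and 2, and 14.05 on replicate 3. Its values on replicates 1 and 2 lay inside the control range, with a difference of -0.01 ± 0.09 (SE; 95% interval -0.23 to 0.21; limma, adjusted p = 0.98). Sesn1 and Sesn2 encode sestrins, which restrain the growth kinase complex mTORC1. Sesn1 measured 8.76, 8.80 and 8.63 in control, 8.80 and 8.84 on replicates 1 and 2, and 9.47 on replicate 3. Its groups touched at 8.80, and the difference over 5 arrays was 0.09 ± 0.07 (adjusted p = 0.64). Sesn2 measured 5.56, 5.74 and 5.57 in control, 5.55 and 5.73 on replicates 1 and 2, and 7.22 on replicate 3. Replicates 1 and 2 overlapped the controls, with a difference of 0.02 ± 0.09 (95% interval -0.20 to 0.23; adjusted p = 0.97), and replicate 3 lay 1.47 above the highest other array. Over 6 arrays the differences were 0.13 ± 0.14 for Ccng1, 0.31 ± 0.19 for Sesn1 and 0.54 ± 0.44 for Sesn2 (limma, adjusted p from 0.83 to 0.85).

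Zmat3, a zinc finger protein that binds RNA, measured 4.91, 4.93 and 4.97 in control, 4.91 and 5.004 on Dnmt3b-KO replicates 1 and 2, and 6.18 on replicate 3. The first 5 values lay just above the median gene and overlapped, so the size of the step to replicate 3 is not exact. The difference was 0.02 ± 0.06 over 5 arrays (SE; 95% interval -0.12 to 0.16; limma, adjusted p = 0.93) and 0.43 ± 0.34 over 6 (adjusted p = 0.83).

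**Figure D2:**
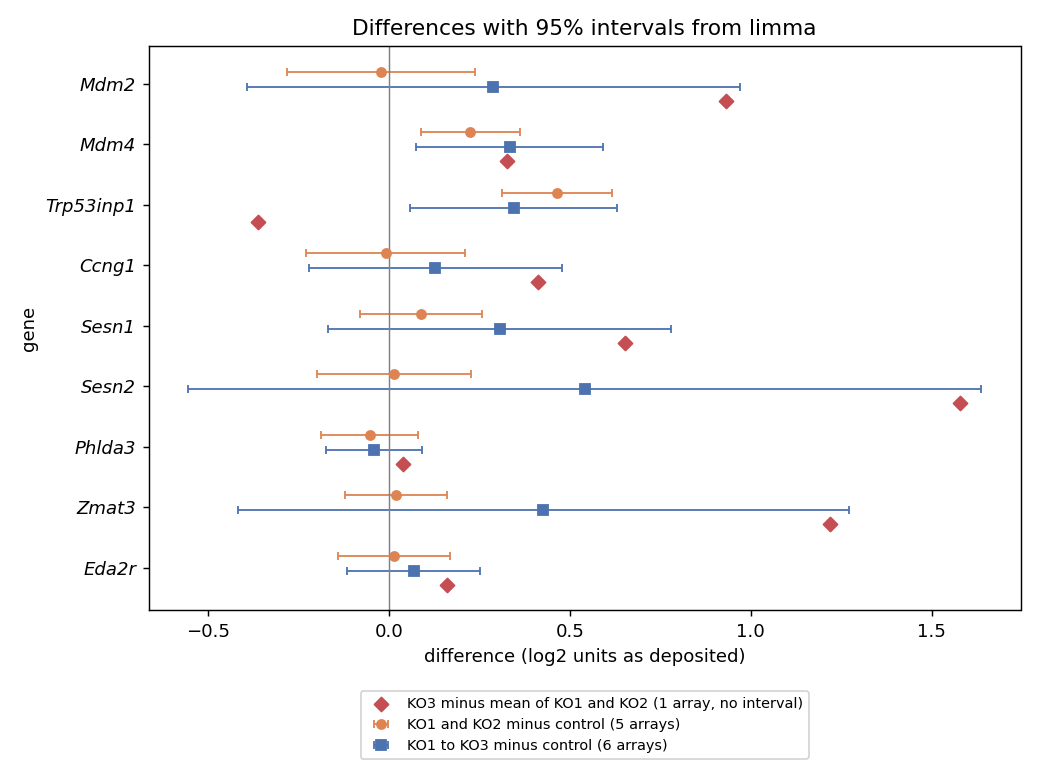
Differences in log2 units (x axis) for each measured gene (y axis): circles give Dnmt3b-KO replicates 1 and 2 minus control, squares all 3 Dnmt3b-KO arrays minus control, both with 95% intervals from limma, and diamonds give Dnmt3b-KO replicate 3 minus the mean of replicates 1 and 2, a single array with no interval. The circles of Mdm4 and Trp53inp1 lie clear of 0, and the diamonds run from -0.36 for Trp53inp1 to 1.58 for Sesn2.

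Dnmt3b-KO replicate 3 was then set against the mean of replicates 1 and 2, as 1 array with no test. Sesn2 was higher by 1.58, Zmat3 by 1.22, Mdm2 by 0.93, Sesn1 by 0.65, Ccng1 by 0.41 and Mdm4 by 0.33. Trp53inp1 was lower by 0.36 (-0.36). The array lay above all 5 others for 7 of 9 genes, against 33.9% of all genes, and below all 5 others for 0 of 9, against 31.3%. It exceeded replicates 1 and 2 by more than 0.5 for 4 of 9, against 9.03% of all genes. Among genes above the median level, 26.1% lay above all 5 others and 13.1% exceeded by more than 0.5. Of the 7 measured genes above it, 6 and 4 did. Larger rises were measured for 2.14% of all genes in the case of Sesn2 and for 4.42% in the case of Mdm2. The median difference was 0.41 over the 9 genes and 0.02 over all genes. The directions of the 7 genes kept after repeated quantile normalization and after centring the arrays, where 7 of 9 again lay above all others. These genes moved on the array whose macrophage markers were high (list mean 9.53, against 6.48 to 6.63) and whose mean over 8 leukaemia markers was 13.3, against 13.6 to 13.9. The part of those marker levels in these values was not tested. In RNA from many cells, more cells of a type and more RNA per cell cannot be told apart.

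**Figure D3:**
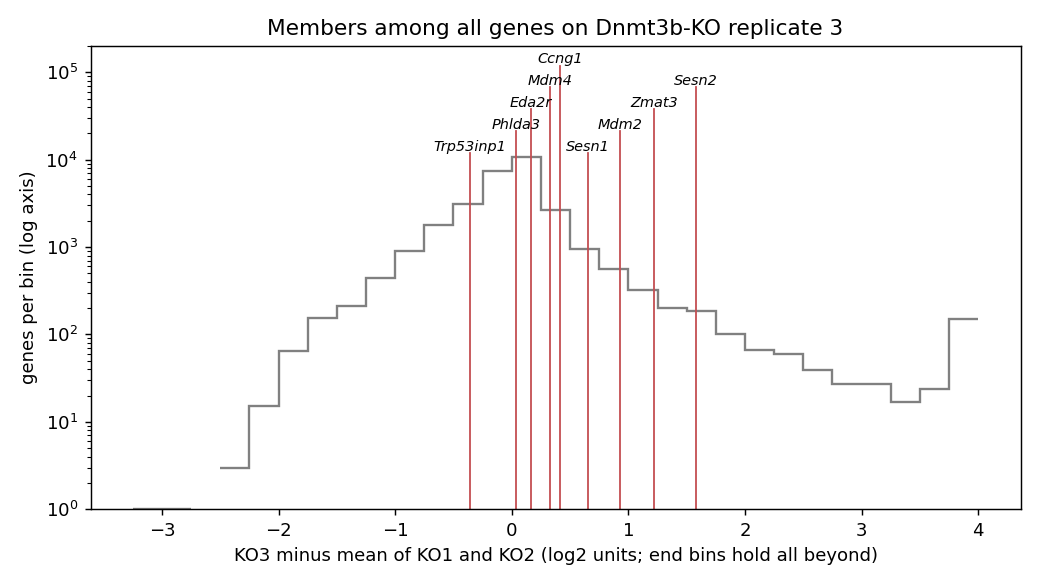
Number of genes (y axis, log axis) by the difference between Dnmt3b-KO replicate 3 and the mean of replicates 1 and 2 (x axis, log2 units, bins of 0.25), over 30142 genes, with a vertical line for each measured gene of the p53 set. Differences beyond 4 in either direction, found for 120 genes, are counted in the end bins. Sesn2, Zmat3, Mdm2 and Sesn1 lie on the right shoulder, Phlda3 near the centre at 0.04 and Trp53inp1 left of it.

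Other p53 targets lay on both sides of control. Of 34 further targets on 3 lists 28 were measured, of which 2 rose, 0 fell and 26 did not pass over 5 arrays, where 0.939% of all genes were called higher and 0.75% lower. The 2 that rose both serve cell death: Pmaip1, which encodes the BH3-only protein Noxa, by 0.60 ± 0.06 (SE; limma, adjusted p = 0.016), and Dram1, a lysosomal regulator of autophagy, by 0.41 ± 0.05 (adjusted p = 0.031). On Dnmt3b-KO replicate 3 both lay below every other array, at 8.91 for Pmaip1 and 10.38 for Dram1. Over 6 arrays the differences were 0.29 for Pmaip1 and 0.11 for Dram1. Pmaip1 lost its call when control replicate 1 or 3 or either Dnmt3b-KO replicate was left out, and Dram1 when any 1 array was; both lost it with the replicate number as a block. Over 6 arrays 0 of the 28 were called by limma, with 2 at an unadjusted p under 0.05, against 6.37% of all genes. The median difference of the 28 over 5 arrays was -0.03, that of all genes -0.01.

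Among 8 measured genes of cell cycle arrest and feedback, 0 passed over 5 arrays. Cdkn1a, the gene for the CDK inhibitor p21 and the best known p53 target, measured 8.87, 8.51 and 9.14 in control, 8.53 and 8.38 on Dnmt3b-KO replicates 1 and 2, and 11.66 on replicate 3. Replicates 1 and 2 reached the lower end of the controls, with a difference of -0.38 ± 0.18 (SE; limma, adjusted p = 0.38), and replicate 3 stood 3.20 above them. Plk2, a polo-like kinase, measured 4.93, 4.96 and 5.03 in control, 5.17 and 5.49 on Dnmt3b-KO replicates 1 and 2, and 10.82 on replicate 3. Over 5 arrays it differed by 0.36 ± 0.10 (limma, adjusted p = 0.17), and Plk3, its relative, by -0.47 ± 0.13 (adjusted p = 0.14). Ppm1d, the phosphatase Wip1 that turns p53 signalling off, and Gtse1, which moves p53 out of the nucleus, went the other way on replicate 3: they measured 9.24 and 8.14 there, below every other array.

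In the apoptosis list 11 of 13 genes were measured, and replicate 3 lay below all other arrays for 8 of them, against 31.3% of all genes, and above for 2, against 33.9%. Fas, a death receptor, measured 9.34 to 9.71 on 5 arrays and 8.36 on replicate 3. Bbc3, which encodes the BH3-only protein Puma, measured 4.96 to 5.20 and 5.75. Tnfrsf10b, another death receptor, differed by -0.36 ± 0.06 over 5 arrays (SE; limma, adjusted p = 0.055) and measured 6.41 on replicate 3, above every other array. Of 9 measured genes of DNA repair and metabolism 0 passed. Xpc, a damage sensor of nucleotide excision repair, came nearest at 0.38 ± 0.08 (adjusted p = 0.093) and measured 9.85 on replicate 3, below every other array, while Ephx1, an epoxide hydrolase, measured 6.40 there and 5.06 to 5.15 elsewhere. Over the 28 further targets, replicate 3 lay above all other arrays for 8, against 33.9% of all genes, and below for 16, against 31.3%. The median difference from replicates 1 and 2 was -0.20.

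**Figure D4:**
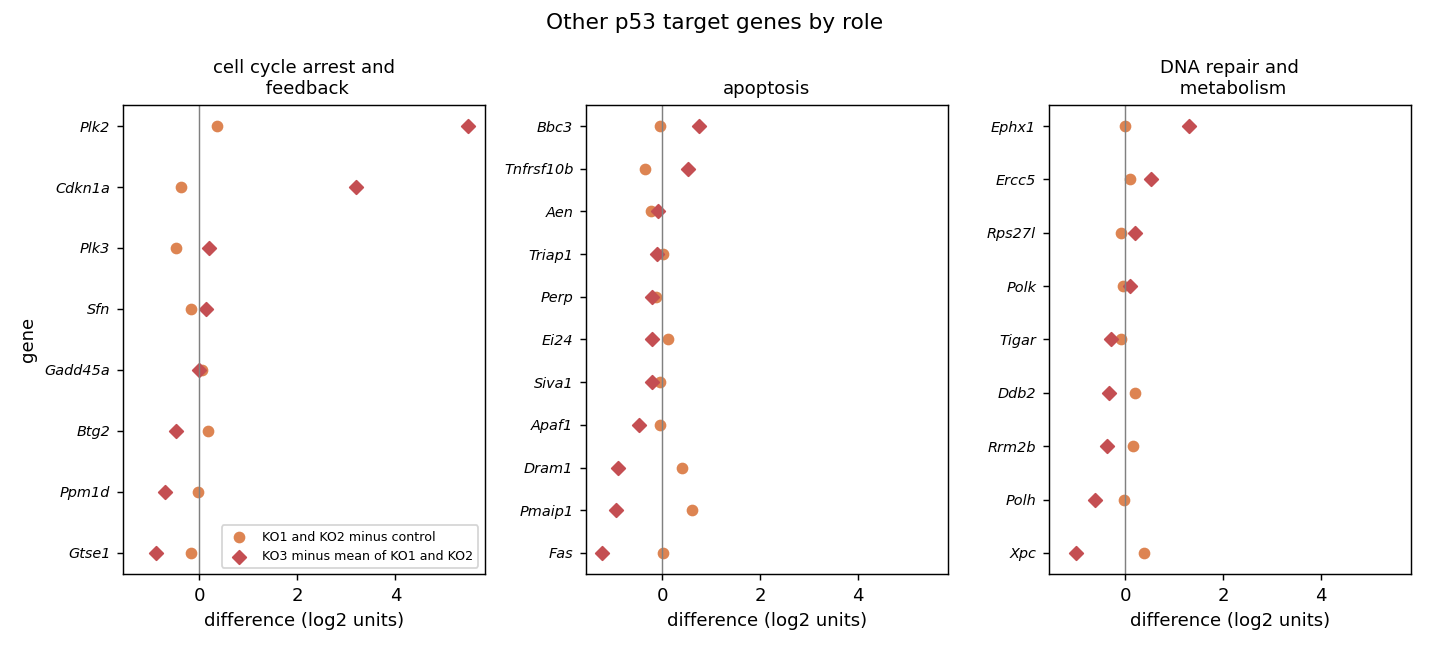
Differences in log2 units (x axis) for 28 further p53 targets (y axis) in 3 roles: circles give Dnmt3b-KO replicates 1 and 2 minus control and diamonds give Dnmt3b-KO replicate 3 minus the mean of replicates 1 and 2. The diamonds of Plk2 (5.49) and Cdkn1a (3.20) lie far right and that of Fas (-1.22) lies furthest left, while the circles run from -0.47 to 0.60.

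Regulators that act on p53 were read next. Of 20 genes 18 were measured, 1 fell, 0 rose and 17 did not pass over 5 arrays, where 1.69% of all genes were called and 0.75% called lower. The gene that fell was Hipk2, a kinase that phosphorylates p53 after damage, at 12.28, 12.05 and 12.17 in control, 11.47 and 11.58 on Dnmt3b-KO replicates 1 and 2, and 10.64 on replicate 3. All 3 Dnmt3b-KO values lay below all controls. The difference was -0.64 ± 0.08 over 5 arrays (SE; limma, adjusted p = 0.031) and -0.94 ± 0.26 over 6 (adjusted p = 0.66), and the call ended without control replicate 1 or 3, without either Dnmt3b-KO replicate and with the replicate number as a block (adjusted p = 0.11). Rchy1, a ubiquitin ligase for p53, differed by 0.30 ± 0.08 over 5 arrays (adjusted p = 0.15), and Usp10, which removes ubiquitin from p53, by -0.25 ± 0.07 (adjusted p = 0.14). Atm, the kinase that signals double-strand breaks, measured 10.04 to 10.10 on the 5 arrays and 9.98 on replicate 3. Cdkn2a, whose ARF product blocks Mdm2, measured 5.30 to 5.41 and 5.15.

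Relatives of the 9 genes did not pass either. Of 12, 7 lay below the median gene on all arrays, among them Trp63 and Trp73, the relatives of Trp53. Zmat2 came nearest, with a difference of -0.16 ± 0.05 over 5 arrays (SE; limma, adjusted p = 0.21). Dnmt3b-KO replicate 3 lay above all other arrays for 4 of the 12, against 33.9% of all genes, and below for 5, against 31.3%. The 5 were Sesn3, Ccng2, Zmat1, Zmat2 and Zmat5, and the 4 were Trp63, Trp73, Edar and Phlda1. Sesn3, the third sestrin, measured 4.59 to 4.95 on 5 arrays, near the median gene, and 4.03 on replicate 3. Ccng2, the gene for cyclin G2, measured 7.91 to 8.10 on 5 arrays and 7.13 on replicate 3.

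Cell cycle genes that p53 lowers indirectly, through p21 and the DREAM repressor complex, were read beside Cdkn1a. Of 11 measured, 1 fell over 5 arrays, Aurka, a mitotic kinase, by 0.33 (-0.33 ± 0.05, SE; limma, adjusted p = 0.047), and 10 did not pass, where 1.69% of all genes were called and 0.75% called lower. Over 6 arrays Aurka differed by -0.50 ± 0.15 (SE; limma, adjusted p = 0.68). Its 5-array call ended when any 1 array was left out, with the replicate number as a block (limma, adjusted p = 0.13) and under 4 other settings (0.052 to 0.062). On replicate 3, 10 of the 11 lay below all other arrays, among them Cdc25c at 7.46 against 8.53 to 8.62 and Plk1 at 12.42 against 13.27 to 13.70, where 31.3% of all genes did. The median difference of the list from replicates 1 and 2 was -0.62. The macrophage and leukaemia marker levels given above moved on the same array, and their part in these values was not tested.

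Genes known to respond to cell handling and stress were also read. Of 10 measured, 0 passed over 5 arrays and 6 had groups that did not overlap over 6 arrays, against 14.9% of all genes. Dusp1, an immediate early phosphatase, measured 13.16, 13.38 and 14.18 in control and 15.03, 15.53 and 14.61 in Dnmt3b-KO, with a difference of 1.70 ± 0.31 over 5 arrays (SE; limma, adjusted p = 0.063). Fosb differed by 1.92 ± 0.38 (adjusted p = 0.077). Fos and Jun, further parts of the AP-1 factor, differed by 1.202 ± 0.29 and 1.66 ± 0.43 (adjusted p = 0.12 and 0.14). Hspa1a, a heat shock gene, went the other way by -0.53 ± 0.12 (adjusted p = 0.11), at a level below the median gene on every array. In all, 6 of the 10 had a difference above 0 over 5 arrays and 4 below. Egr1 differed by -0.31 ± 0.32, Dnajb1 by -0.12 ± 0.08, Ier3 by -0.03 ± 0.12 and Ier2 by 0.13 ± 0.18. Marker lists of cell types were read beside these. All 7 measured erythroid markers had a difference below 0 over 5 arrays, as did 16195 of all 30142 genes. Of the 7, 0 were called and 4 had groups that did not overlap over 6 arrays, against 14.9% of all genes. Alas2, the erythroid enzyme of haem synthesis, came nearest at -1.15 ± 0.22 (SE; limma, adjusted p = 0.071), and the mean level of that list was 5.06 to 5.41 in control and 4.71 to 4.90 in Dnmt3b-KO. All 8 leukaemia markers had a difference above 0 over 5 arrays, as did 13947 of all 30142 genes. Of the 8, 1 was called, Meis1, which rose by 0.65 ± 0.06 (limma, adjusted p = 0.011) and differed by 0.05 over 6 arrays. Of 5 measured endothelial markers 1 was called, Eng, which rose by 0.89 ± 0.06 (limma, adjusted p = 0.0050) and measured 6.56 on replicate 3, below every other array. Among all genes, 0.939% were called higher over 5 arrays. The Meis1 call ended without control replicate 1, without either Dnmt3b-KO replicate and with the replicate number as a block, and the Eng call without either Dnmt3b-KO replicate. The part of these genes in the rise of Trp53inp1 was not tested. Atf3, a stress factor that also binds p53, measured 4.65 to 4.80 on 5 arrays and 8.94 on replicate 3.

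The nearest patterns were sought for Mdm2 and Trp53inp1 among 15070 other genes above the median level, by the root mean square distance between deviations from the control mean over 6 arrays. Nearest to Mdm2 were Cd151 (distance 0.05), Gm22808 and Tmem64. Nearest to Trp53inp1 were Slc2a9 (distance 0.04), Tinagl1 and Tmco4. Slc2a9 measured 7.83, 7.65 and 7.75 in control, 8.27 and 8.21 on Dnmt3b-KO replicates 1 and 2, and 7.81 on replicate 3. The likeness is one of values over few arrays.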

How the data were processed

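Expression was measured on 6 arrays, 3 Control AML and 3 Dnmt3b-KO AML, grouped by their titles. The authors deposited log2 values made with RMA (named without a version, per the submitters' processing notes). The highest value, 19.59, exceeds the 16 bits of a scanner, so the scale holds a step that is not stated, and differences are not converted to folds. Of 72688 rows, 6732 were array controls, 30604 had exactly 1 symbol in the platform annotation, 2146 had several and 33206 had none. Symbols of 827 rows were updated through the gene identifier, and each gene was represented by its row of highest mean, which left 30142 genes.

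The members, the gene lists and the 5-array comparison were chosen with earlier results of these data known. The groups were tested with limma 3.58.1 (R 4.3.3), using lmFit and eBayes; p-values were adjusted by Benjamini-Hochberg across the 30142 genes and called under 0.05. The fit was tested on simulated data. All 10 members are named, with genes of other lists past the threshold and up to 3 per direction with the smallest p. The 10 measured genes of handling and stress are all named. Marker genes, further genes named for their values on Dnmt3b-KO replicate 3, and Atm and Cdkn2a were chosen after their values were seen. The alternatives were array weights, a variance trend, the replicate block, other scalings, gene filters and leaving out arrays. The paired check gave correlations of same-numbered deviations of 0.13, 0.03 and 0.11. The titles name no pairs, and the main fits took none. Promoters are RefSeq's on GRCm38.p6. The number of arrays limits the precision. Figures were drawn with matplotlib 3.10.9.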

Additional observations from a re-analysis of the deposited data

How the results depend on the processing

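The alternatives for Dnmt3b-KO replicate 3 set apart were chosen after seeing the data; the 5-array fit and the alternatives to both fits were listed with earlier results known. Over 6 arrays, the 0 genes called became 103 with array weights, which gave Dnmt3b-KO replicate 3 a weight of 0.112 and the others 1.26 to 2.17, and ran from 0 to 509 with 1 array left out. The 0 of the 9 genes called ran from 0 to 1 in the same way, the 1 being Trp53inp1 without Dnmt3b-KO replicate 3. Over 5 arrays, the 509 calls became 996 when the fit took only the more highly expressed genes (above the median), where fewer are tested, and 96 with the replicate number as a block, and ran from 13 to 262 with 1 more array left out (a lone Dnmt3b-KO array is then assumed to vary like the controls). The 1 of 9 became 0 with the block and ran from 0 to 0 with 1 array left out; it was 1 at an adjusted p under 0.1, where 3.81% of all genes were called, and stayed 1 under the other settings. Over 5 arrays, control replicate 3 is the only array with its number, so the block sets it aside. The differences equal those without that array (Trp53inp1 0.46 in both), where 97 genes were called. The block over 5 arrays is thus no separate check from leaving out control replicate 3. Same-numbered deviations correlated at 0.13, 0.03 and 0.11, and differently numbered ones at -0.12 to 0.09. These few values cannot settle if equal numbers mark a pair.

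Trp53inp1 and Mdm4 lay above control under every setting run for both fits. Values near 0 changed sign. Ccng1 became -0.0184 over 6 arrays with array weights and 0.0043 over 5 arrays with centring, and Sesn2 and Eda2r became -0.0119 and -0.0255 over 5 arrays with the block. With 1 array left out, Mdm2 ran from -0.0214 to 0.53 and Ccng1 from -0.00844 to 0.22 over 6 arrays. Over 5 arrays Mdm2 ran from -0.19 to 0.15, Ccng1 from -0.0682 to 0.0649, Sesn2 from -0.0765 to 0.11, Zmat3 from -0.0252 to 0.0659 and Eda2r from -0.0255 to 0.0430. The cause was not tested. On Dnmt3b-KO replicate 3, Phlda3 turned from 0.04 to -0.06 and -0.05 under repeated quantile normalization and centring, at a level below the median gene.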
